A study of Homo sapiens with 9 samples.

Results

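The metallothionein genes MT1A, MT1E, MT1F, MT1G, MT1H, MT1M, MT1X, MT2A and MT3 were followed through RNA-seq libraries of PC-3 cells. They were chosen by symbol and make up 9 of the 60617 genes in the deposited tables. PC-3 cells are a widely used line that was grown from a bone metastasis of a human prostate cancer. The 9 libraries were 3 controls, 3 from cells given decitabine at 1 µM and 3 from cells given decitabine at 1 µM and S-adenosylmethionine (SAM) at 200 µM, called the combination treatment here. The labels give 5 days from the start of treatment to extraction, the doses are those of the study's methods, and the methods state that controls received the vehicle, sulfuric acid and ethanol in PBS. All cells were of the same line. Nothing in the labels says that libraries of a group came from separate cultures, so p-values measure the spread between these libraries, which may be technical. Treatment with SAM alone was not analysed here.

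Metallothioneins are small cysteine-rich proteins that bind zinc, copper and cadmium through the sulfur of their cysteines. Their genes are induced by metals through the zinc-sensing transcription factor MTF1, which binds metal response elements in their promoters, and by glucocorticoids. MT2A and some of the MT1 genes are used in most tissues, whereas MT3 is best known from the brain. The normal prostate holds much zinc and prostate cancer holds little, and promoters of several MT1 genes are known to be methylated in tumours. Decitabine is a cytidine analogue that traps DNA methyltransferases and lowers DNA methylation, while SAM is the methyl donor that these enzymes use.

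The members lie side by side on chromosome 16 (GRCh38, GENCODE release 44), between 56589074 and 56684196, a stretch of 95.1 kb. In order of position they are MT3 (ENSG00000087250, 56589074 to 56591088), MT2A (ENSG00000125148, 56608584 to 56609497), MT1E (ENSG00000169715, 56625475 to 56627112), MT1M (ENSG00000205364, 56632659 to 56633981) and MT1A (ENSG00000205362, 56638666 to 56640087). MT1F (ENSG00000198417, 56657731 to 56660698), MT1G (ENSG00000125144, 56666730 to 56668065), MT1H (ENSG00000205358, 56669814 to 56671129) and MT1X (ENSG00000187193, 56682470 to 56684196) follow. MT1G is on the minus strand and the other 8 are on the plus strand.

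RefSeq promoter sequences were at hand for MT2A, MT1X and MT1H. MT2A was the most abundant member in every library. MT1X was the member whose groups overlapped in every comparison, and MT1H had the fewest counts. Promoter sequences of the other members, MT1E, MT1F and MT1M among them, were not at hand, so only these 3 are shown. Each is the 250 bases before the gene's start on the plus strand of chromosome 16 (GRCh38.p14), and capitals mark the metal response core, TGCACNC or TGCGCNC on either strand.
MT2A, chr16:56608334-56608583: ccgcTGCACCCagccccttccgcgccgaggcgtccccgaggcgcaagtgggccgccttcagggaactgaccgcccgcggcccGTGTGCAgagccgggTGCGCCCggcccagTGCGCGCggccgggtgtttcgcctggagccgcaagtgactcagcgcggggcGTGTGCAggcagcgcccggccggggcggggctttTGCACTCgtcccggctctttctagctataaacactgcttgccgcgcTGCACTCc
MT1X, chr16:56682220-56682469: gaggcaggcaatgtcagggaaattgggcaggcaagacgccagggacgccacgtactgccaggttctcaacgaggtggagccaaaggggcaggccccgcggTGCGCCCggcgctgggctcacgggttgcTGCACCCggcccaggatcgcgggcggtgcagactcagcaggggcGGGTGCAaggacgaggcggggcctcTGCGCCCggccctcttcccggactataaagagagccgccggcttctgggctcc
MT1H, chr16:56669564-56669813: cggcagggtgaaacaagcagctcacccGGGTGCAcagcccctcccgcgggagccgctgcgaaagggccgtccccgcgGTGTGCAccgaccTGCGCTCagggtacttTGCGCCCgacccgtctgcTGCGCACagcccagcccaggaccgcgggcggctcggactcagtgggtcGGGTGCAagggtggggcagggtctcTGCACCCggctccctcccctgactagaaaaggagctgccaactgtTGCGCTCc

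The core was found 7 times before MT2A, 4 times before MT1X and 8 times before MT1H. Of the 35116 promoters in the same table, 24.8% held at least 1 core in a window of this length, 0.0313% held as many as MT2A, 0.37% as many as MT1X and 0.0171% as many as MT1H. The MT2A window held 32 CpG sites and the MT1X and MT1H windows 22 each, against a median of 11 over all promoters. The TATA box letters TATAAA stood before MT2A and MT1X and in 10.7% of all promoters, and the AP-1 letters TGACTCA before MT2A and in 4.2%. The GC box letters GGGCGG, counted on either strand like the others, were in all 3 windows and in 42.6% of promoters, and 1 of those before MT1X overlapped a core. These matches describe letters only, and no methylation or factor binding was measured at them here.

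Library totals lay between 21934307 and 22489684 estimated counts. The expression levels below are CPM, the share of a library's counts scaled with the TMM method, with scaling factors of 0.895 to 0.902 in controls and 1.033 to 1.078 in treated cells. With library size as the only scaling, the median change over all genes was 0.281 (log2) after decitabine in place of 0.035, and 0.268 after combination treatment in place of 0.048. Epithelial markers were present in all groups. In the order controls, decitabine and combination treatment, KRT8 had 120, 264 and 208 CPM, KRT18 426, 358 and 316, EPCAM 17.3, 20.4 and 21.9 and the E-cadherin gene CDH1 1.88, 14.4 and 16.9. Of the markers of other cells, the T cell gene CD3E had 0 counts in controls, 3 after decitabine and 1 after combination treatment. The blood cell gene PTPRC had 5, 75.1 and 51.1 counts and the endothelial gene PECAM1 10.1, 35.1 and 39.7 CPM in the same order. Their part in the results was not tested.

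In the controls, metallothionein RNA came from MT2A and MT1X almost alone. Per kilobase of the canonical transcript, MT2A had 1170 CPM and MT1X 111, which was 91.0% and 8.66% of the length-scaled sum over the 9 members. MT1F followed with 3.27 CPM per kilobase, MT1M with 0.415, MT1E with 0.0445 and MT3 with 0.0405. MT1A, MT1G and MT1H had no counts in any control library. The ranges of MT2A, MT1X, MT1F and MT1M did not overlap with those of their neighbours in this order, while MT1E and MT3, with 2 counts and 1 count in 3 libraries, could not be told apart. MT1E's canonical transcript has 746 bases and those of the other members 396 to 425, so that its place on this scale depends on the transcript chosen.

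**Figure D1:**
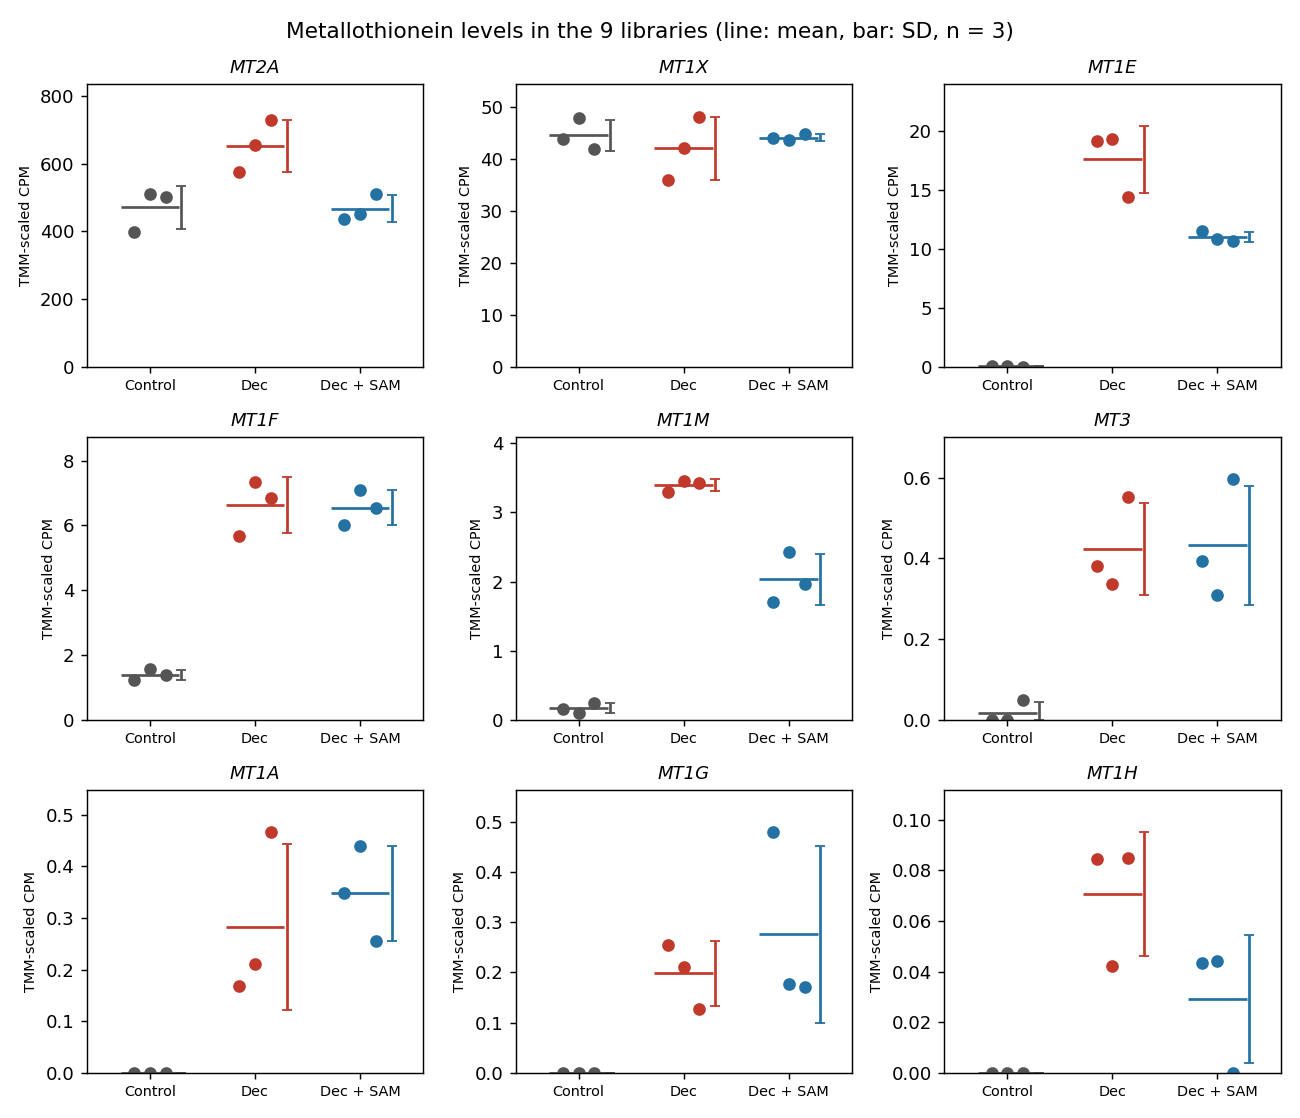
Level of each of the 9 members in every library, in TMM-scaled CPM on a linear axis from 0 that differs between panels, with the mean as a line and the SD of 3 libraries as a bar. The decitabine libraries lie above all controls in 8 of 9 panels, MT1X being the exception, and MT2A, MT1E and MT1M are lower after combination treatment than after decitabine in every library.

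The first comparison asked how decitabine alone changed the family. It upregulated MT2A, MT1E, MT1F and MT1M, so that 4 of the 5 members with enough counts for the test were higher and 0 were lower, the fifth being MT1X. Of all 18532 genes tested, 36.3% were called higher and 32.5% lower at an adjusted p under 0.05 in edgeR's quasi-likelihood test. The median log2 fold change of the 5 members tested was 2.25, against 0.03 for all genes. MT1E and MT1M had 2 and 10 counts over the controls and passed the filter only through the treated libraries. They could hardly come out lower, so the tally and the median depend in part on the filter. The same applies below to MT1L, SLC12A3 and SLC30A8, with 0, 0 and 4 counts over the controls. The remaining members, MT1A, MT1G, MT1H and MT3, had too few counts for the filter. Decitabine and control libraries did not overlap for 8 of the 9 members, all higher. Of the members tested, these were MT2A, MT1E, MT1F and MT1M, beside 38.1% of all genes tested. That share does not cover MT1A, MT1G, MT1H and MT3, which had not passed the filter.

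The combination treatment against control upregulated MT1E, MT1F and MT1M. This was 3 of the 5 members tested, with 0 lower, while 35.9% of all genes were called higher and 31.3% lower. The median of the 5 was 2.23, against 0.05 for all genes. Here too, MT1E and MT1M were tested only because of their counts in treated libraries. For 6 of the 9 members all treated libraries were above all controls. Of the members tested, these were MT1E, MT1F and MT1M, beside 38.0% of all genes tested. That share does not cover MT1A, MT1G and MT3, which had not passed the filter. This comparison uses the same 3 control libraries as the first.

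Between the treatments, MT2A, MT1E and MT1M were lower after combination treatment than after decitabine alone, and 0 members were higher. Of all genes tested, 8.02% were called lower and 7.67% higher. The 3 members were also those without overlap between the treatments, which was found for 16.8% of genes tested in this direction. The median log2 fold change of the 5 members was -0.49, and that of all genes was 0.00. MT1F and MT1X were not called. Bulk RNA-seq cannot tell fewer cells that use a gene from less of its RNA per cell, and this holds for all changes below.

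MT2A, the main metallothionein of most human tissues, had 398, 512 and 502 CPM in controls. It had 576, 655 and 730 CPM after decitabine and 437, 451 and 512 after combination treatment. All decitabine libraries were above all others, and the libraries of the combination treatment overlapped with the controls. The means were 471 ± 62.9, 654 ± 77.1 and 467 ± 39.8 CPM (SD, n = 3). Decitabine raised MT2A by 0.47 on the log2 scale (standard error 0.11, 95% interval 0.24 to 0.71, adjusted p = 0.0015). The combination treatment differed from the controls by -0.01 (95% interval -0.25 to 0.22, adjusted p = 0.93). Against decitabine alone it differed by -0.49 on the log2 scale (standard error 0.11, 95% interval -0.72 to -0.25, adjusted p = 0.01). This last call was lost without replicate 1 of the combination treatment (-0.44, adjusted p = 0.052) or without its replicate 2 (-0.46, adjusted p = 0.061), and its value stayed between -0.57 and -0.40 in all fits that left out a library. With library size as the only scaling, the rise after decitabine was 0.72.

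MT1X, the other member with a high level in untreated cells, had 44.0, 47.9 and 42.0 CPM in controls. With decitabine it had 36.0, 42.1 and 48.1 CPM, and after combination treatment 44.1, 43.8 and 44.9. All 3 groups overlapped. The log2 fold change was -0.09 after decitabine (95% interval -0.29 to 0.12, adjusted p = 0.45), -0.01 after combination treatment (-0.22 to 0.19, adjusted p = 0.92) and 0.07 between the treatments (-0.13 to 0.28, adjusted p = 0.64). A rise of the size of that of MT1F was outside these intervals. With library size alone, the values against control changed sign, to 0.16 after decitabine and 0.21 after combination treatment. The long non-coding RNA ENSG00000259827 overlaps MT1X on the same strand and had no counts in any library.

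MT1E, a member that was nearly silent in controls, had 1, 1 and 0 counts there. It had 455.1, 458 and 339 counts after decitabine and 263, 246.3 and 251.4 after combination treatment. No treated library came near the controls, and every library of the combination treatment was below every decitabine library. The means were 17.6 ± 2.84 and 11.0 ± 0.397 CPM (SD, n = 3) in the treated groups. The ratio to the controls was 533 after decitabine (95% counting interval 147 to 4400, adjusted p = 3.1e-11) and 332 after combination treatment (91.6 to 2750, adjusted p = 1e-10). The difference between the treatments was -0.68 on the log2 scale (standard error 0.13, 95% interval -0.97 to -0.39, adjusted p = 0.0056). It remained called in every fit that left out a library, at -0.81 to -0.61.

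MT1M had 3, 2 and 5 counts in controls, 78, 82 and 81 after decitabine and 39, 55.2 and 46 after combination treatment. As with MT1E, the 3 groups formed separate steps, with controls lowest and decitabine highest. The levels were 0.165 ± 0.0747, 3.40 ± 0.0859 and 2.03 ± 0.37 CPM (SD, n = 3). MT1M rose by 4.31 on the log2 scale after decitabine (standard error 0.31, adjusted p = 3.3e-08) and by 3.57 after combination treatment (standard error 0.33, adjusted p = 3.6e-07). Between the treatments it differed by -0.74 (standard error 0.21, 95% interval -1.19 to -0.30, adjusted p = 0.029). That call was lost without replicate 1 or 2 of decitabine (adjusted p = 0.06 and 0.1) and without replicate 1 or 2 of the combination treatment (adjusted p = 0.11 and 0.056), with values of -0.89 to -0.64.

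MT1F had 1.24, 1.55 and 1.38 CPM in controls. It had 5.66, 7.34 and 6.86 CPM after decitabine and 6.01, 7.10 and 6.54 after combination treatment. All treated libraries were above all controls, and the treated groups lay on top of each other. The log2 fold change was 2.25 after decitabine (standard error 0.18, adjusted p = 6.9e-08) and 2.23 after combination treatment (standard error 0.18, adjusted p = 7.8e-08). The difference between the treatments was -0.02 (95% interval -0.33 to 0.30, adjusted p = 0.96). A lowering by as much as the estimates for MT2A, MT1E or MT1M was outside this interval, although these differences between members were not themselves tested.

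**Figure D2:**
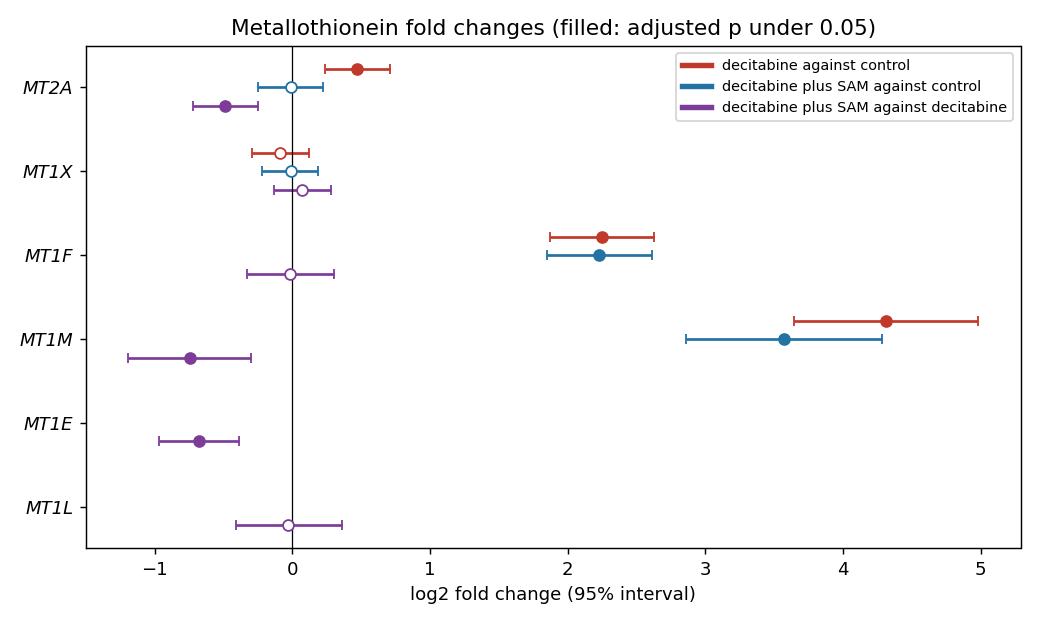
Log2 fold changes with 95% intervals for the 5 members tested and the family locus MT1L, with filled points for an adjusted p under 0.05 in edgeR's quasi-likelihood test. MT1F and MT1M lie far to the right of 0 against control, MT1X lies on 0, and MT2A, MT1M and MT1E lie left of 0 between the treatments. MT1E and MT1L are drawn for that comparison only because they had 2 and 0 counts in controls.

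The last 4 members stayed rare after treatment. MT3 had 0, 0 and 1 counts in controls, 9, 8 and 13 after decitabine and 9, 7 and 14 after combination treatment. Its ratio to the controls was 25.5 after decitabine (95% counting interval 4.24 to 1040) and 26.2 after combination treatment (4.35 to 1070). MT1A had no counts in controls, 4, 5 and 11 after decitabine and 8, 10 and 6 after combination treatment, at least 5.67-fold and 6.98-fold higher. These bounds, like those below, set the controls to 3 counts over the group and take the treated counts as exact. They leave out the counting error of the treated libraries, so they are too high where treated counts are few. The counting intervals cover counting error only.

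MT1G had 0 counts in every control, 6, 5 and 3 after decitabine and 11, 4 and 4 after combination treatment, at least 3.98-fold and 5.54-fold higher. MT1H had 0 in every control, 2, 1 and 2 after decitabine and 1, 1 and 0 after combination treatment. Its bound after decitabine was 1.42-fold, but with so few treated counts this does not establish a rise. The counts after combination treatment were too few for a ratio. The treated libraries of MT3, MT1A and MT1G were all above the controls, and the treated groups overlapped for all 4 genes. The ratio of the combination treatment to decitabine was 1.03 for MT3 (95% counting interval 0.598 to 1.76), 1.23 for MT1A (0.652 to 2.35), 1.39 for MT1G (0.662 to 3.0) and 0.41 for MT1H (0.0391 to 2.51). A change between the treatments of the size found for MT1E lay within or close to the limits of these intervals. When the filter was dropped, MT3, MT1A and MT1G were called higher against control after decitabine (adjusted p = 1.2e-05, 5.8e-05 and 0.001) and after combination treatment (9.4e-06, 9.6e-06 and 0.00012), and MT1H was not (0.1 and 0.35).

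Per kilobase, the order after decitabine was MT2A with 1630 CPM, MT1X with 104, MT1E with 23.6, MT1F with 15.6, MT1M with 8.53, MT3 with 1.04, MT1A with 0.712, MT1G with 0.483 and MT1H with 0.178. The ranges of neighbours overlapped between MT3 and MT1A and between MT1A and MT1G. With the combination treatment MT1F had 15.4 CPM per kilobase and MT1E 14.7, and these overlapped, as did MT3, MT1A and MT1G. The overlap of MT1E and MT1F depends on the length used for MT1E, since in CPM without that scaling MT1E had at least 10.7 and MT1F at most 7.10 in each library of the combination treatment.

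**Figure D3:**
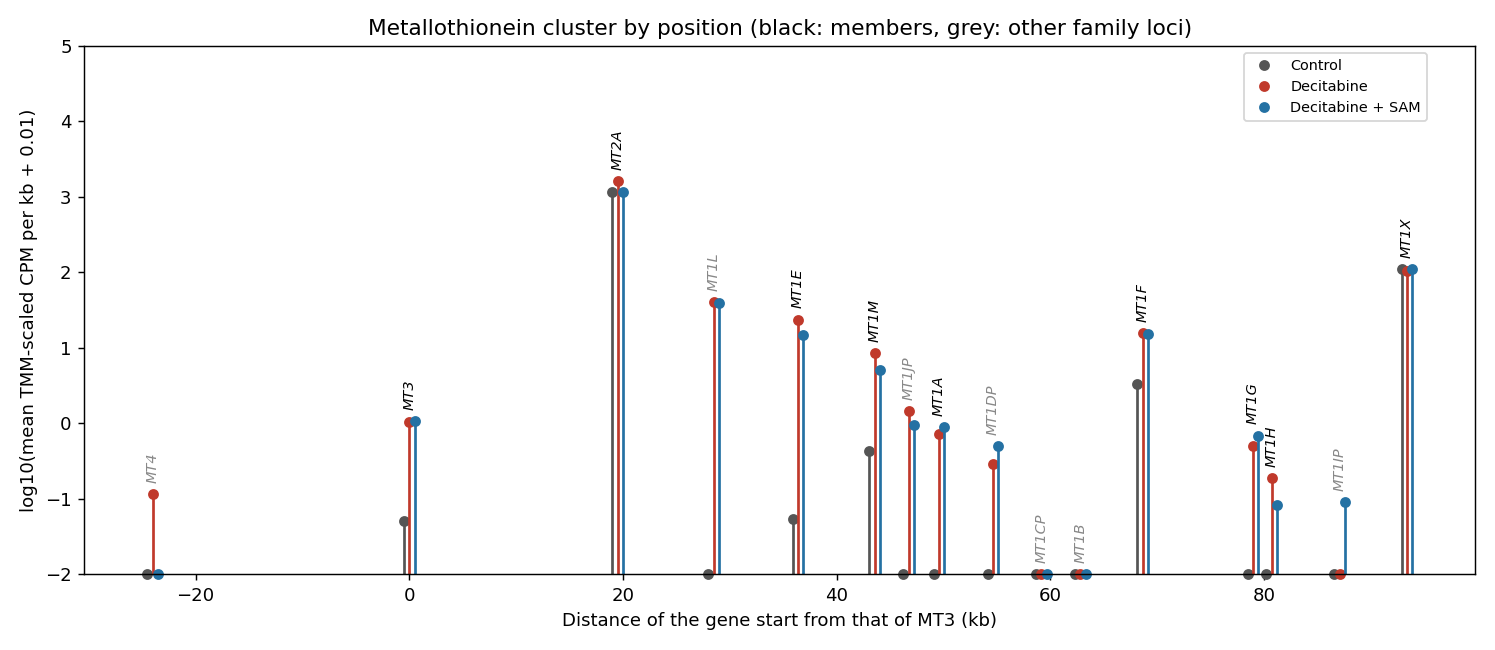
Mean level of the metallothionein loci along chromosome 16, as log10 of TMM-scaled CPM per kilobase plus 0.01, against the distance of each gene's start from that of MT3 in kb. Points show the 3 groups, and a point on the axis is a locus without counts. MT2A and MT1X stand high in all groups, and MT1L and MT1E, next to MT2A, go from the bottom of the scale to over 10 CPM per kilobase with both treatments. The height of MT1L depends on its annotated length of 186 bases, its means being 7.48 CPM after decitabine and 7.35 after combination treatment.

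Taking the 9 members as a sum, the controls had 444, 561 and 546 CPM, the decitabine libraries 641, 728 and 804 and those of the combination treatment 501, 517 and 577. The decitabine libraries were above all others, and the other groups overlapped. The means were 517 ± 63.9, 724 ± 81.6 and 532 ± 40.0 CPM (SD, n = 3), a log2 difference of 0.49 after decitabine, 0.04 after combination treatment and -0.45 between the treatments. With library size alone these were 0.73, 0.26 and -0.47. The sum was 0.0397 to 0.0502% of all counts in controls, 0.0677 to 0.0866% after decitabine and 0.0517 to 0.0616% after combination treatment.

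The sum followed MT2A, whose length-scaled share was 91.0% in controls, 91.3% after decitabine and 88.7% after combination treatment. MT1X had a share of 7.65 to 9.85% in controls, 5.66 to 5.99% after decitabine and 7.80 to 8.83% after combination treatment, while its own level was not called in any comparison. MT1E, at 0.0036% in controls, made up 1.35% after decitabine and 1.13% after combination treatment. The shares of MT1F were 0.255, 0.874 and 1.18% and those of MT1M 0.0325, 0.482 and 0.390%.

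The deposited tables held 12 other metallothionein loci, most of them pseudogenes. MT1L (ENSG00000260549, 56617563 to 56618680), annotated as a transcribed pseudogene between MT2A and MT1E, had 0 counts in every control. It had 168, 207 and 156 counts after decitabine and 209, 151 and 148 after combination treatment, at least 151-fold and 148-fold higher (adjusted p = 6e-09 and 6.4e-09). The treated groups overlapped, and the difference between them was -0.03 on the log2 scale (95% interval -0.41 to 0.36, adjusted p = 0.94). MT1JP had no counts in controls, 19.1 after decitabine and 12.0 after combination treatment, summed over 3 libraries. MT4, MT1DP, MT1P1 and MT1IP had at most 5 counts in a group, and MT1B, MT1CP, MT1HL1, MT2P1, MT1P3 and MT1XP1 had none in any library.

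Metallothionein genes share sequence, so reads can be split between them. Of the words of 31 bases in the annotated transcripts, 98.7% occurred in no other gene of the tables for MT3, 96.8% for MT1F, 89.9% for MT2A, 85.4% for MT1E, 83.1% for MT1A and 79.7% for MT1X. The lowest shares among the members were 76.7% for MT1G, 70.6% for MT1M and 70.1% for MT1H, and that of MT1L was 67.9%. All annotated transcripts of a gene were pooled, from 366 words for MT1A to 1904 for MT1F. The shares thus also cover words outside the canonical transcripts and do not rank the RNA that was counted. MT1M shared most with MT1E, MT1H with MT1G and MT1X with ENSG00000259827. How reads were divided within these pairs was not tested. Of the 68 member values above 0, 57 (83.8%) were within 0.05 of a whole count.

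Of 13 other genes in the tables within 200 kb of the stretch that holds the members, 6 were tested. With decitabine 2 were higher and 2 lower (median log2 fold change -0.03), after combination treatment also 2 and 2 (median -0.05), and between the treatments 0 were higher and 1 was lower (median -0.01). Against control these counts are near the shares of all genes, 36.3% higher and 32.5% lower after decitabine and 35.9% and 31.3% after combination treatment. Between the treatments, 7.67% of all genes were higher and 8.02% lower. These counts and medians leave out the neighbours with too few counts for the filter. Of those, ENSG00000260823 had 0 counts in controls, 23 after decitabine and 14 after combination treatment, and NUP93-DT had 2, 20 and 24. The rest had no counts in any library. SLC12A3, which encodes the thiazide-sensitive sodium chloride cotransporter of the kidney, had 0 counts in controls, 190.5 after decitabine and 120.6 after combination treatment, at least 54.0-fold and 35.1-fold higher. BBS2, a subunit of the BBSome of primary cilia, had 85.0 CPM in controls, 37.6 after decitabine and 20.3 after combination treatment. It fell by 1.17 and 2.06 on the log2 scale against control (adjusted p = 2e-07 and 1.3e-09) and by 0.89 between the treatments (adjusted p = 0.00041).

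The genes that sense and move zinc changed in both directions. MTF1, the metal-sensing activator of metallothionein genes, had 26.7 ± 2.42 CPM in controls, 23.7 ± 2.83 after decitabine and 23.2 ± 3.87 after combination treatment (SD, n = 3). Its log2 fold changes of -0.17, -0.20 and -0.03 were not called (adjusted p = 0.24, 0.17 and 0.89). Of 19 zinc handling genes tested out of 25 listed, 7 were higher and 4 lower after decitabine (median 0.07), 10 and 6 after combination treatment (median 0.30) and 4 and 1 between the treatments (median -0.03). The count of higher genes after decitabine is near the background, where 36.3% of all genes were higher and 32.5% lower, and the shares of all genes were 35.9% and 31.3% after combination treatment and 7.67% and 8.02% between the treatments. With library size as the only scaling, 12 were higher and 1 lower after decitabine. The median over all genes was then 0.281, and the share of all genes called under that scaling is not reported here. These 2 counts can thus not be set against the background.

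SLC30A1, the zinc exporter of the plasma membrane and another MTF1 target, had 55.3, 57.5 and 54.1 CPM in controls, 70.4, 74.2 and 75.7 after decitabine and 82.8, 87.0 and 93.8 after combination treatment. No library of one group overlapped with another. It rose by 0.40 and 0.66 on the log2 scale against control (adjusted p = 0.00016 and 1.5e-06) and was higher by 0.26 after combination treatment than after decitabine (adjusted p = 0.024), where MT2A, MT1E and MT1M were lower. The zinc importer SLC39A10 behaved alike, at 46.1, 79.2 and 105 CPM, with rises of 0.78 and 1.19 against control (adjusted p = 3.1e-07 and 5.4e-09) and 0.41 between the treatments (adjusted p = 0.0026).

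The largest rise among zinc genes was in SLC30A8, the zinc transporter of insulin granules, at 25.8 times its control level after decitabine (95% counting interval 9.8 to 96.0) and 24.2 times after combination treatment (9.2 to 90.5). The importer SLC39A14 fell most, by 0.60 with each treatment (adjusted p = 0.0012 for both). Between the treatments the largest rise was 0.45 in SLC39A3 (adjusted p = 0.0043), and SLC39A13 fell by 0.38 (adjusted p = 0.0089).

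Of 9 copper handling genes, all tested, 3 were higher and 0 lower after decitabine (median 0.21), 6 and 1 after combination treatment (median 0.41) and 1 and 0 between the treatments (median 0.00). Of all genes, 36.3% were higher and 32.5% lower after decitabine, 35.9% and 31.3% after combination treatment and 7.67% and 8.02% between the treatments, so the 3 copper genes higher after decitabine are close to the background. SLC31A1, the main copper importer, was not called, at -0.07, -0.12 and -0.05. SLC31A2, a related transporter, rose most, by 1.16 and 1.04 against control (adjusted p = 6.4e-06 and 2e-05). The mitochondrial copper chaperone SCO1 fell by 0.21 after combination treatment (adjusted p = 0.045), and COX17, another chaperone, was higher by 0.34 between the treatments (adjusted p = 0.014). With library size alone, 6 copper genes were higher after decitabine. The share of all genes called under that scaling is not reported here, so this count has no background beside it.

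**Figure D4:**
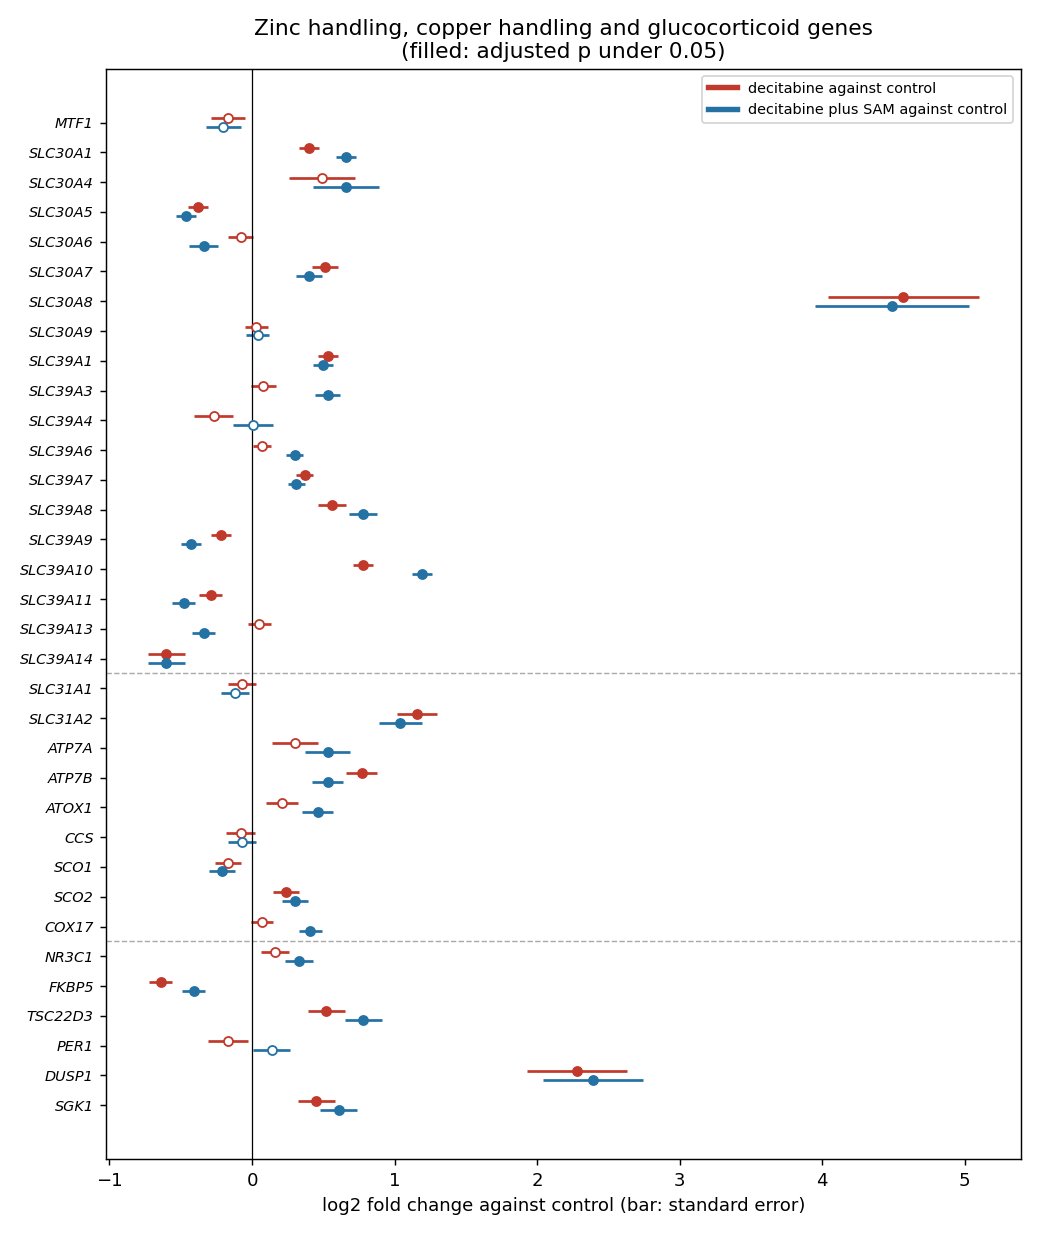
Log2 fold changes against control, with the standard error as a bar, for the zinc, copper and glucocorticoid genes tested, the lists being divided by dashed lines. Filled points have an adjusted p under 0.05 in edgeR's quasi-likelihood test. Most genes lie within 1 of 0, SLC30A8, DUSP1, SLC31A2 and SLC39A10 reach further to the right, and MTF1 is open in both comparisons.

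Glucocorticoid signalling is, like metals, among the known inducers of MT2A. NR3C1, the glucocorticoid receptor, was not called after decitabine (log2 fold change 0.16, adjusted p = 0.17) and rose by 0.33 after combination treatment (adjusted p = 0.011). Of 6 genes tested in the list of the receptor and its targets, 3 were higher and 1 lower after decitabine (median 0.30), 4 and 1 after combination treatment (median 0.47) and none was called between the treatments (median 0.20), beside background shares of 36.3% higher and 32.5% lower after decitabine and 35.9% and 31.3% after combination treatment. Between the treatments the background shares were 7.67% higher and 8.02% lower. With 6 genes, nothing particular to the list is read from these counts. The targets did not share a direction. FKBP5, a co-chaperone of the receptor, fell by 0.64 and 0.41 against control (adjusted p = 9.5e-06 and 0.00048). TSC22D3, which encodes the glucocorticoid-induced leucine zipper, rose by 0.52 and 0.78 (adjusted p = 0.0028 and 0.00011). The largest rise was in the phosphatase gene DUSP1, by 2.28 and 2.39 (adjusted p = 0.00081 and 0.00065), with 29.0 to 69.8 CPM across the decitabine libraries.

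The genes most like the summed metallothionein level were ranked by Pearson's r of log2 CPM over the 9 libraries. The 14309 genes ranked had a mean count of 50 or more in some group. Among the 10 highest were LMF2 (r = 0.968), SLC66A3 (0.957), ENSG00000271880 (0.949), MGC16275 (0.949), MYLK (0.945), BRF2 (0.943), ENSG00000226380 (0.939), IL15RA (0.935) and BFAR (0.933). The libraries share their groups and scaling, and with this many genes over 9 points high values of r are a description only. Since the genes were picked for this pattern, their fold changes are given without a test. LMF2, a lipase maturation factor, had a log2 fold change of 0.34 after decitabine, 0.01 after combination treatment and -0.33 between the treatments. Those of IL15RA, a receptor chain for interleukin 15, were 1.31, 0.18 and -1.13, and those of MYLK, the myosin light chain kinase, were 0.84, 0.17 and -0.67. Those of BFAR were 0.06, 0.02 and -0.04.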

How the data were processed

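RNA-seq of 9 PC-3 libraries was analysed. Per the labels and the study's methods, reads were trimmed with Trim Galore 0.6.4, related to GRCh38.p13 and quantified with kallisto, and the authors deposited estimated counts per Ensembl gene, not normalized. The annotation release was not given in the sources used here. The deposited log2 CPM values were not used. Of 60617 identifiers, 60357 matched GENCODE release 44. Groups and replicate numbers came from the titles. Members and gene lists were chosen with earlier results of these data known.

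Counts were rounded, filtered with filterByExpr, scaled with TMM and tested with edgeR 4.0.16 (robust quasi-likelihood test, R 4.3.3), with 1 mean per group over all 9 libraries. P-values were adjusted over 18532 genes by the Benjamini-Hochberg method (threshold 0.05, no threshold on the fold change). Ratios and bounds used summed counts, a floor of 3 counts and exact 95% intervals. The text names all members, the other family loci, MTF1, SLC30A1, SLC39A10, SLC31A1, NR3C1, FKBP5 and TSC22D3, the called gene with the largest rise and fall of each list and comparison, and genes among the 10 most like the summed level, of which not all are reported here. ENSG00000259827 and the marker genes were named beside these. As alternatives, libraries were scaled by size alone or by the size factors of DESeq2, the test was replaced with DESeq2 1.42.0 or with limma 3.58.1 after voom, and the filter was dropped or set to a mean count of 10. Further fits used unrounded counts, the pair of groups alone, replicate numbers as blocks, a log2 fold change above 1, or left out each library.

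Pairs of libraries within a group had a chi-square of 5.86 to 23.5 per degree of freedom, so none was a copy. On simulated counts for 16109 genes, changes were set to 2 on the log2 scale in 5 draws. The test recovered 95.1% of genes changed by decitabine, 95.7% of those changed by the combination and 95.8% of those that differed between treated groups. Of its calls, 7.24%, 8.09% and 5.54% were false, each above the share that the adjusted p threshold allows. Smaller changes, such as those of MT2A, MT1E and MT1M between the treatments, were not simulated. The draws changed a far smaller share of genes than was called against control. Recovery of such small changes, and the scaling when many genes change, were thus not tested. Tables were handled in Python 3.11.15 with numpy 2.4.6, pandas 2.3.3 and scipy 1.17.1, and plots were drawn with matplotlib 3.10.9. Promoter sequences were those of RefSeq.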

Additional observations from a re-analysis of the deposited data

How the results depend on the processing

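The count of members higher after decitabine was 7 without a filter and 4 to 6 when a library was left out. With the combination treatment it was 6 without a filter and 3 to 5 when a library was left out. Those fits tested up to 9 and up to 7 members, and the added calls were MT3, MT1A and, without a filter, MT1G. The count of members lower between the treatments was 1 to 3 when a library was left out and 0 above a log2 fold change of 1. With library size alone, the summed level differed from the controls by 0.73 after decitabine and 0.26 after combination treatment. Uncalled values near 0 changed sign. MT1X after decitabine was 0.16 with library size alone and -0.20 to 0.01 when a library was left out, and after combination treatment 0.21 with library size alone, 0.0 at a mean of at least 10 counts, 0.01 in the 6 libraries compared and -0.06 to 0.03 when a library was left out. MT2A after combination treatment was 0.21, 0.0, 0.01 and -0.13 to 0.04 in the same order. Between the treatments, MT1F was -0.12 to 0.06 and MT1X -0.03 to 0.18 when a library was left out. The cause was not tested. Same-numbered libraries had correlations of -0.017 to 0.233 in their deviations from the group means, with 2 of 9 pairs over 0.1. Both were between decitabine and combination treatment, 0.233 for number 1 and 0.229 for number 3. Crossing numbers 1 and 3 of these groups gave -0.22 each way. What same-numbered treated libraries share is not given in the labels, and the main test took them as unpaired. With the replicate block, 4 members were higher after decitabine, 3 were higher after combination treatment and 3 were lower between the treatments, and no member's call changed. The block gave adjusted p = 0.0011 for MT2A and 0.023 for MT1M between the treatments. With it, 2 zinc genes were lower and 1 neighbour higher there. DESeq2, voom and limma kept all member counts. Depth limits MT1A, MT1G, MT1H and MT3, and with 3 libraries a group an exact permutation test cannot go below p = 0.1.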
